A study of Solanum lycopersicum with 21 samples.

Results

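In leaves of the tomato cultivar M82 (Solanum lycopersicum), 150 genes were lower in a strigolactone-depleted line than in the wild type in each of 3 sampling conditions. The genes were chosen from these data. Counts were divided by the library total and put on a common scale (CPM), and locus IDs with a mean of at least 5 CPM over the 21 libraries were kept. This minimum left 13385 of the 35039 IDs in the table. For each kept ID the log2 ratio of the depleted line to the wild type was taken in each condition, after adding 0.5 CPM to both means, and the highest of the 3 ratios was its score. The 150 lowest scores are the genes described here, so that each was lower in all 3 conditions by construction. The ratios between the genotypes therefore describe the choice and support nothing beyond it.

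The 21 libraries form 7 groups of 3. Wild-type M82 and line 6936, an M82 line with silenced CCD7, a gene of strigolactone synthesis, were each sampled as irrigated plants, after recovery from 1 drought (recovery 1) and after recovery from 2 droughts (recovery 2). A further group held irrigated wild-type plants whose leaves were sprayed with 5 µM GR24 5DS, a synthetic strigolactone analogue, 24 h before sampling. The depleted line was not among the sprayed samples analysed here. Per the labels, the strigolactone content of roots and exudates of line 6936 is reduced by 70 to 80%. Neither its leaf content nor whether the line is 1 clone is given in the sources used here. Irrigated and recovery samples carry the time labels 0, 31 and 76, without a unit, so drought history and sampling time cannot be told apart. The sprayed samples carry the label 24, the same number as the hours from spray to sampling. Whether they were taken at the same time as the irrigated plants labelled 0 is not settled by the labels. No spray without GR24 is named for the unsprayed groups, and the labels name the irrigated wild type as the control for the spray. A replicate was at least 3 leaves, 1 per plant, and the labels name 5 plants, perhaps per condition. If so, replicates of a group shared plants, and p-values would be too small.

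Strigolactones are hormones made from carotenoids, and CCD7 is a carotenoid cleavage dioxygenase that acts early in their synthesis. The hormone is perceived by a hydrolase-type receptor that works with an F-box protein, and repressor proteins are then degraded, which changes the transcription of downstream genes. Strigolactones are known for restraining shoot branching, for their release from roots into the soil, and for a part in the drought response of leaves.

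The files do not pair the IDs with gene names, and 0 of the 35039 IDs matched the 41476 RefSeq genes of assembly SLM_r2.1. The genes are therefore given by ID, without name, function, coordinates or sequence. For the same reason the level of CCD7 and the leaf marker genes were not analysed here. Total counts ranged from 19267602 to 35433511 per library, and 3 counts, the floor used here, stand for 0.0847 to 0.156 CPM. Scaling by library total moved the whole transcriptome. The median log2 ratio of the depleted line to the wild type over the 13385 kept IDs was -0.23, -0.16 and -0.23 in irrigated, recovery 1 and recovery 2 samples on plain CPM, and 0.03, 0.01 and 0.05 after TMM scaling. Levels and differences below are therefore TMM-normalised CPM unless plain CPM is named. The scores and the minimum of 5 CPM are on plain CPM. With TMM scaling in the rule, 135 of the 150 genes were chosen again.

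The scores ran from -5.68 to the limit of -1.42, with a median of -1.69, which is 3.23-fold lower in the depleted line in the condition where the ratio was weakest. The median score of all kept IDs was 0.05. Of the 150 genes, 36 scored below -2 and 7 below -3. The weakest of the 3 ratios came from the irrigated plants for 43 genes, from recovery 1 for 62 and from recovery 2 for 45. The spread of the 3 ratios of a gene was below 1 on the log2 scale for 103 genes and above 2 for 14. Its median was 0.71, and it was not compared with the spread over the kept IDs. Just inside the limit stood Solyc01g105180.3 and Solyc10g055620.2, at -1.43 and -1.42, and just outside it Solyc01g096700.3 and Solyc09g011470.3, both at -1.42, so the list ends within a continuous run of scores.

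The 150 genes covered a wide range of levels. Their mean over the 9 unsprayed wild-type libraries was 6.12 to 1343 CPM, with a median of 30.0, and was below 10 CPM for 22 genes, between 10 and 100 for 99 and at least 100 for 29. In the 9 depleted libraries the means ran from 0.0389 to 476 CPM, with a median of 6.55. The minimum of 5 CPM was met over all 21 libraries together. For 60 of the 150 genes the depleted mean alone was below 5 CPM, and 9 of these were below 1 CPM. These depleted means are TMM-normalised, while the minimum was set on plain CPM. Without the libraries of irrigated wild type 10 of the 150 genes would have missed the minimum, without wild-type recovery 1 12, without wild-type recovery 2 14 and without GR24 6, in all 19 genes, while leaving out a depleted group cost none. A high value of such a gene in that group is part of its choice. The ratio of the wild-type mean to the depleted mean was at least 2.46 and had a median of 3.90, with 104 genes up to 5-fold, 34 between 5- and 10-fold and 12 above 10-fold. In RNA from whole leaves, fewer cells of a type and less RNA per cell cannot be told apart.

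Single libraries followed the group means for most of the genes. All 3 wild-type libraries lay above all 3 depleted libraries for 144 genes in irrigated plants, where 26.1% of the kept IDs did so, for 142 genes in recovery 1 (19.6% of kept IDs) and for 142 in recovery 2 (22.6% of kept IDs). This held in all 3 conditions for 130 genes, and for 7.87% of kept IDs. All 9 unsprayed wild-type libraries lay above all 9 depleted libraries for 101 genes, against 4.53% of kept IDs. In edgeR's quasi-likelihood test over 20373 IDs, with a threshold of 0.05 on the Benjamini-Hochberg adjusted p, 128 of the 150 genes were called lower in irrigated plants, where 16.0% of all tested IDs were. The calls were 126 in recovery 1, beside 9.71% of all tested IDs, and 137 in recovery 2, beside 11.7%. None of the 150 was called higher in any of these, nor had a fitted ratio above 1 before the test, while 18.4%, 9.92% and 14.9% of all tested IDs were called higher. The rule used these comparisons, so the counts describe the list.

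**Figure D1:**
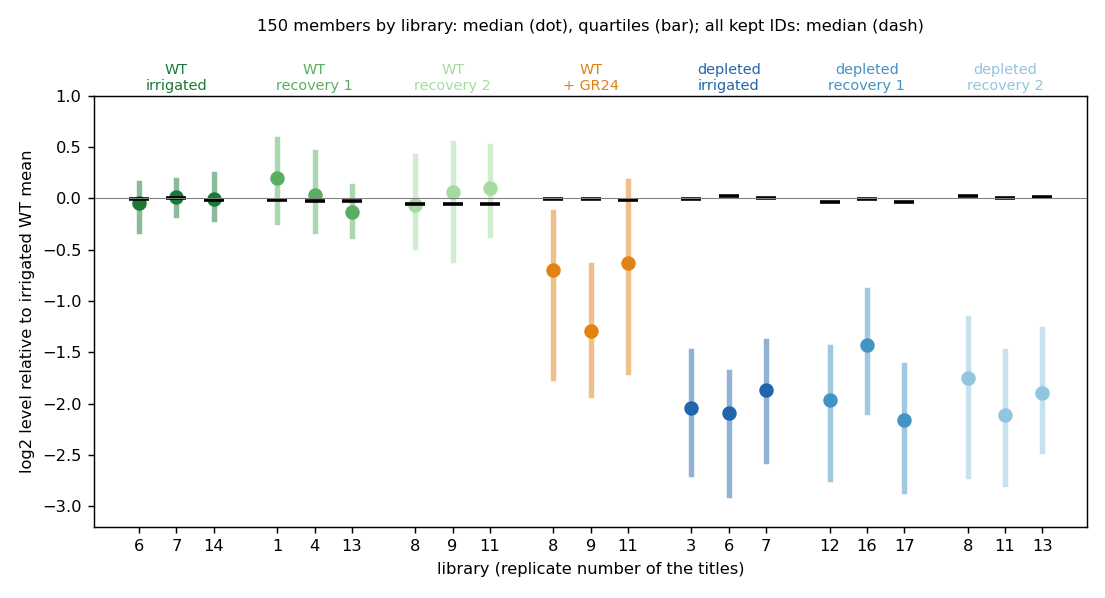
Each point is 1 library, and its height is the median over the 150 genes of the log2 difference from the mean of the irrigated wild type, in TMM-normalised CPM; bars are quartiles, and dashes the median of all 13385 kept IDs. The 9 depleted libraries lie between -2.16 and -1.43, the 6 recovery libraries of the wild type between -0.14 and 0.20, and the 3 GR24 libraries at -0.70, -1.29 and -0.63.

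Seen library by library, the median gene of the list stood lower than in irrigated wild type by similar amounts in most of the depleted libraries. The median log2 difference was -2.04, -2.10 and -1.87 in the irrigated depleted libraries and -1.90, -2.11 and -1.75 in recovery 2. In recovery 1 replicates 17 and 12 stood at -2.16 and -1.97, and replicate 16 at -1.43. Replicate 16 was the highest of its group for 100 of the 150 genes, and for 43.5% of the kept IDs. It did not reach the wild-type libraries, whose medians ran from -0.14 to 0.20 in recovery. When replicate 16 was left out of the rule, 117 of the 150 genes were chosen again, the fewest for any library left out. The genes also varied more between libraries than the kept IDs did. Their median coefficient of variation was 34.0% in irrigated depleted plants, against 16.6% over the kept IDs, and 23.0% in irrigated wild type, against 12.3%. The values in the GR24 group were 48.2% and 18.8%. The median level over the 21 libraries was 18.3 CPM for the list and 25.2 CPM for the kept IDs, and the part of level in the wider spread was not tested.

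The lowest score belonged to Solyc07g052790.2, a gene that was close to absent from the depleted line. In CPM, its lowest, median and highest values were 17.3, 25.4 and 35.1 over the 9 unsprayed wild-type libraries. Over the 9 depleted libraries they were 0, 0.0281 and 0.0966, from 9 counts in all, against 7539 counts in the wild type. The ratio of wild type to depleted line from these sums was 653, with an exact 95% interval of 344 to 1430 that covers counting error only. Each depleted library lay at or below 0.0966 CPM, at or below the floor of 3 counts. After GR24 the gene was at 10.9, 13.7 and 36.7 CPM in replicates 8, 9 and 11, with the first and second below the wild-type range, the last above it and all far above the depleted line.

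Solyc01g103920.3 had the next lowest score and a different profile. In the wild type its values were 9.76, 20.9 and 21.4 CPM in irrigated replicates 6, 7 and 14. They were 164, 75.2 and 23.7 CPM in recovery 1 replicates 1, 4 and 13. Recovery 2 replicates 8, 9 and 11 held 92.95, 605 and 208 CPM, so the wild-type libraries alone spanned a wide range. In the depleted line its lowest, median and highest values were 0, 0.287 and 2.53 CPM, all below the lowest unsprayed wild-type library. Besides Solyc07g052790.2, only Solyc02g093600.3, named here after its values were seen, was below 1 CPM in all 9 depleted libraries. That gene met the minimum of 5 CPM through 1 library, wild-type recovery 2 replicate 9, at 562 CPM, while the other 8 unsprayed wild-type libraries held between 0.537 and 12.2 CPM.

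At the other end stood 2 genes of high level that were reduced and far from absent. Solyc01g103990.3, the most abundant in the wild type, was at 1185 ± 58.4 CPM (SD, n = 3) in irrigated wild type and 331 ± 84.9 CPM (SD, n = 3) in the irrigated depleted line. In recovery 2 it was at 1482 ± 178 CPM and 575 ± 91.2 CPM (SD, n = 3 each). The gene that followed in level, Solyc11g011440.1, was at 717 ± 225 CPM in irrigated wild type and 215 ± 52.6 CPM in the irrigated depleted line (SD, n = 3 each). In recovery 2 the values of Solyc11g011440.1 were 915 ± 242 CPM and 289 ± 77.9 CPM (SD, n = 3 each). The genotypes did not overlap for either gene. A mean above 100 CPM in the depleted line was found for 5 of the 150 genes, these 2 and Solyc05g007880.3, Solyc04g053130.3 and Solyc11g066390.2, the last 3 named after their values were seen.

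**Figure D2:**
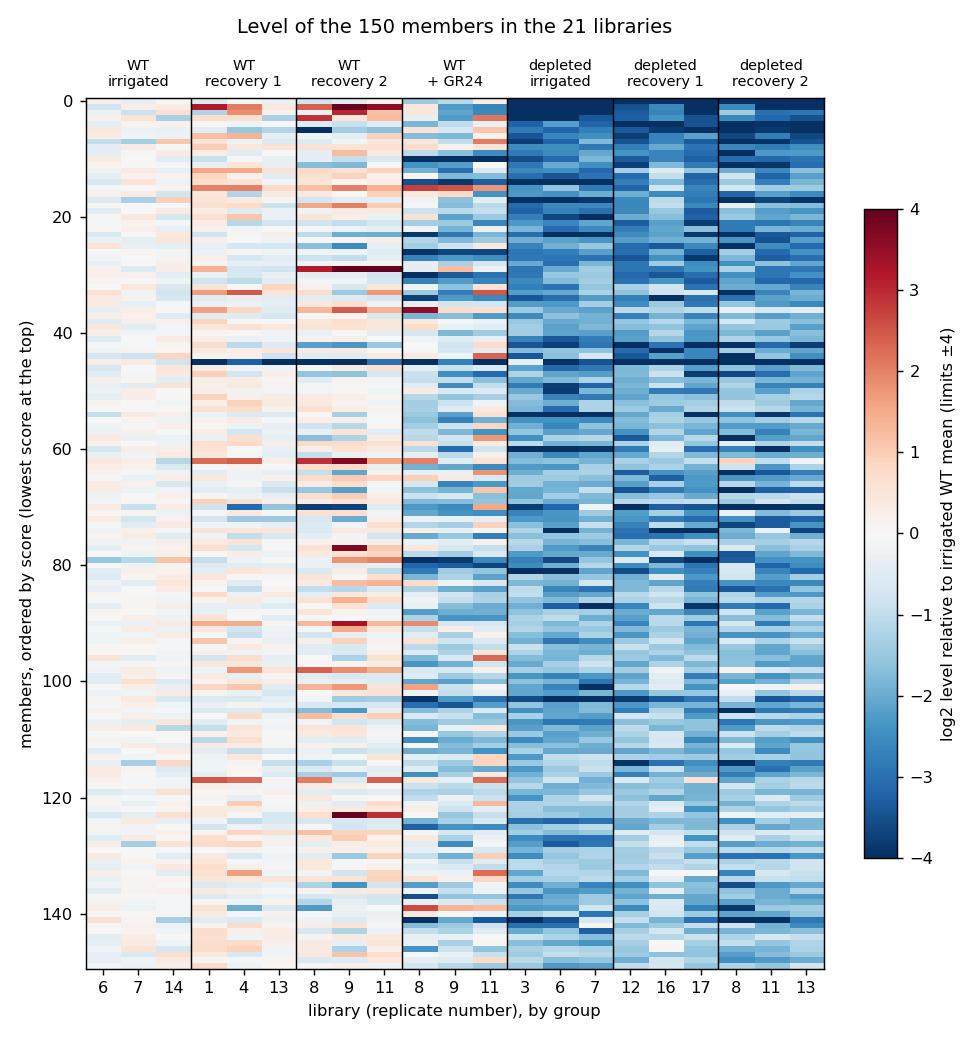
Rows are the 150 genes in the order of the score, and columns are the 21 libraries by group; colour is the log2 difference from the mean of the irrigated wild type in TMM-normalised CPM. The 9 depleted columns are low for nearly every gene, and the 3 GR24 columns hold both genes near the wild-type level and genes near the depleted level.

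The sprayed group entered the rule only through the minimum of 5 CPM. After GR24, the list as a whole stood lower than in unsprayed irrigated wild type. The median log2 difference was -0.72 over the 150 genes, with quartiles of -1.56 and -0.15, against a median of 0.07 over all 20373 tested IDs. The direction was lower for 118 genes and higher for 32. With edgeR's quasi-likelihood test at an adjusted p under 0.05, 51 genes were called lower, 34.0% of the list, where 13.3% of all tested IDs were called lower. Higher calls numbered 2, or 1.33% of the list, where 14.4% of all tested IDs were called higher. These comparisons share their unsprayed libraries with the rule, which chose genes that were high in the wild-type libraries and low in the depleted ones, so the direction is not independent of the choice.

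Against the wild type in recovery 2, which also differs in drought history and time, 62 of the 150 genes were called lower after GR24, or 41.3% beside 10.8% of all tested IDs, and 3 were called higher, or 2.0% beside 15.3%. In both directions they numbered 65, beside 26.1%. The median difference was -0.88. Set against the irrigated depleted line, a comparison that differs in genotype, spray and time label, 82 genes were called higher in the GR24 group, or 54.7% beside 12.9% of all tested IDs. The calls in the lower direction numbered 6, or 4.0% beside 14.4%, and the median difference was 1.40. The calls in both directions were 88, beside 27.3%, and 39 when only the compared groups were fitted. On these values the sprayed wild type stood between the unsprayed wild type and the depleted line for the typical gene of the list. The rule chose genes high in the unsprayed wild-type libraries and low in the depleted ones. For such genes a group left out of the score tends to fall between the 2. This place and the positions that follow are therefore not independent of the choice.

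To place each gene, its GR24 mean was set on a log2 scale on which 0 is the mean of the 9 depleted libraries and 1 the mean of the 9 unsprayed wild-type libraries. The median position was 0.55, with quartiles of 0.19 and 0.88. The genes were spread along the scale and not gathered at 1 place, with 26 below 0, 43 between 0 and 0.5, 58 between 0.5 and 1 and 23 above 1. All 3 GR24 libraries lay below the lowest of the 9 wild-type libraries for 54 genes, where 11.9% of the kept IDs did so. They lay above the highest wild-type library for 1 gene, also beside 11.9% of kept IDs, and inside the wild-type range for 13, beside 20.6%. They lay above the highest depleted library for 41 genes, where 5.04% of kept IDs did so, and inside the depleted range for 26, beside 35.7%. Only 4 genes met both conditions, below every wild-type and above every depleted library, beside 0.0822% of kept IDs: Solyc02g063440.3, Solyc08g066620.3, Solyc03g114480.3 and Solyc06g068850.3, all named after their values were seen.

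Of these 4 genes, Solyc06g068850.3 had the most even libraries in the wild type. Its irrigated wild-type libraries held 24.5, 24.3 and 24.3 CPM, listed in the order of replicate number as are all such values here. The GR24 libraries held 19.4, 22.1 and 15.7 CPM, and the irrigated depleted libraries 6.33, 9.44 and 9.76 CPM. The 3 levels were ordered without overlap. Solyc02g063440.3 showed the same order with the GR24 values farther from the wild type, at 12.7, 10.96 and 11.96 CPM against 17.2, 23.1 and 30.1 CPM in irrigated wild type and 2.03, 3.21 and 2.55 CPM in the irrigated depleted line.

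Among the 101 genes whose genotypes did not overlap, the GR24 means of Solyc11g011440.1 and Solyc07g054810.1 lay nearest the depleted line. Solyc07g054810.1 held 2.52, 7.97 and 6.22 CPM after GR24, 3.26, 4.36 and 8.06 CPM in the irrigated depleted line and 50.8, 43.8 and 25.5 CPM in irrigated wild type, so that the GR24 and depleted values overlapped and both were below the wild type. For Solyc11g011440.1 the GR24 values were 437, 116 and 146 CPM, with replicate 8 apart from replicates 9 and 11. The GR24 means of Solyc07g048040.1 and Solyc02g087790.2 lay nearest the wild type. Solyc07g048040.1 held 21.6, 14.3 and 19.04 CPM after GR24 and 9.85, 16.5 and 12.4 CPM in irrigated wild type, while its irrigated depleted libraries held 1.89, 1.96 and 1.36 CPM. For Solyc02g087790.2 the GR24 values were 15.96, 10.4 and 5.10 CPM and the irrigated depleted values 2.60, 2.68 and 2.21 CPM, without overlap. Irrigated wild type held 7.86, 6.62 and 9.69 CPM of Solyc02g087790.2. GR24 replicate 11 lay below all 9 unsprayed wild-type libraries for this gene, so only the mean was near the wild type.

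The gene called lower after GR24 by the largest fold was Solyc08g007130.3, which also fell below the depleted line. The irrigated wild-type libraries held 922, 725 and 529 CPM and the GR24 libraries 8.90, 22.7 and 33.1 CPM. In the irrigated depleted line the values were 61.6, 83.4 and 210.1 CPM, so the GR24 libraries were below both genotypes without overlap. The difference from irrigated wild type was -5.07 ± 0.52 on the log2 scale (SE), with an edgeR adjusted p of 6.74e-06, and it ran from -5.52 to -4.70 when libraries were left out in turn. Against the irrigated depleted line it was -2.45 ± 0.46 (SE), with an edgeR adjusted p of 0.00125. All 3 GR24 libraries lay below the lowest of the 9 depleted libraries for this gene and for Solyc05g007880.3 and Solyc12g014530.2, named after their values were seen, beside 8.22% of the kept IDs.

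Solyc02g086850.2 was the other gene named among the lower calls. Its irrigated wild-type libraries held 64.1, 69.5 and 31.2 CPM and the GR24 libraries 0.168, 7.84 and 1.63 CPM. The gene reached the minimum of 5 CPM through irrigated wild type, with a mean of 4.10 plain CPM over the other 18 libraries, so this difference was fixed by the choice and is a description with no test. The gene was also low in the unsprayed recovery libraries of the wild type, at 0.368, 5.30 and 0.909 CPM in recovery 1 and 3.12, 1.47 and 6.47 CPM in recovery 2. In the comparison of GR24 with the irrigated depleted line, Solyc02g067230.3 was the other lower call named. It held 7.18, 6.44 and 4.99 CPM after GR24, 12.1, 17.9 and 31.1 CPM in the depleted line and 70.7, 60.2 and 77.1 CPM in irrigated wild type. Its difference from the depleted line was -1.72 ± 0.49 (SE, edgeR adjusted p = 0.0164), and the adjusted p was 0.0868 without depleted replicate 7 and 0.0622 without GR24 replicate 11.

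Against the direction of the list, 2 genes were called higher after GR24 than in irrigated wild type. Solyc03g095650.3 held 26.2, 25.8 and 29.3 CPM in irrigated wild type and 185, 159 and 93.8 CPM after GR24, without overlap, a difference of 2.43 ± 0.54 on the log2 scale (SE, edgeR adjusted p = 0.00336). It kept its call with each library left out. The unsprayed recovery 1 libraries of the wild type, at 109, 111 and 47.7 CPM, and the recovery 2 libraries, at 62.5, 112 and 71.2 CPM, also lay above the irrigated ones. In the irrigated depleted line Solyc03g095650.3 was at 4.87, 8.77 and 3.35 CPM. Solyc09g005610.3 held 3.47, 5.33 and 4.63 CPM in irrigated wild type and 57.6, 7.74 and 7.46 CPM after GR24, a difference of 2.43 ± 0.67 (SE, edgeR adjusted p = 0.0123) that rested on replicate 8. Without replicate 8 the difference was 0.76 with an adjusted p of 0.244, and without wild-type replicate 6 the adjusted p was 0.0537.

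Against wild-type recovery 2, the higher calls were Solyc02g082920.3, Solyc10g075150.2 and, named after its values were seen, Solyc03g025670.3. Solyc02g082920.3 held 16.6, 105 and 88.4 CPM in recovery 2 and 395, 173 and 591 CPM after GR24, a difference of 2.46 ± 0.67 on the log2 scale (SE, edgeR adjusted p = 0.0128). In irrigated wild type it was at 358, 242 and 229 CPM, inside the GR24 range. Without GR24 replicate 11 the adjusted p for Solyc02g082920.3 was 0.0533. Solyc10g075150.2 was the only gene of the list whose 3 GR24 libraries all exceeded all 9 unsprayed wild-type libraries. It held 650.2, 271 and 252 CPM after GR24, 21.4, 89.8 and 105 CPM in recovery 2 and 125, 91.1 and 101 CPM in irrigated wild type. Its difference from recovery 2 was 2.44 ± 0.80 (SE, edgeR adjusted p = 0.032). That call was lost, at adjusted p between 0.05004 and 0.111, when recovery 2 replicate 8, 9 or 11 or GR24 replicate 8 was left out.

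The lower calls named in that comparison, Solyc02g093600.3 and Solyc01g008510.3, were high in recovery 2. Solyc02g093600.3 held 2.12, 562 and 12.2 CPM in recovery 2, 0.537, 0.757 and 2.08 CPM in irrigated wild type and 1.18, 0.0664 and 0.350 CPM after GR24. Solyc01g008510.3 held 33.01, 474 and 95.6 CPM in recovery 2, 3.73, 2.04 and 3.97 CPM in irrigated wild type and 2.35, 8.27 and 2.68 CPM after GR24. For both genes recovery 2 replicate 9 was the highest library. Both reached the minimum of 5 CPM through recovery 2, with means of 0.664 and 2.30 plain CPM over the other 18 libraries. Their differences from recovery 2 were therefore fixed by the choice and are a description with no test.

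The largest differences between the GR24 group and the irrigated depleted line belonged to the 2 genes of lowest score. Solyc07g052790.2 gave 2244 counts after GR24 and 1 count in the irrigated depleted line, a ratio of 1520 with an exact 95% interval of 273 to 60066 for counting error. Solyc01g103920.3 held 23.3, 3.22 and 2.45 CPM after GR24, with replicate 8 apart from the others, and 0.189, 0.0479 and 0 CPM in the irrigated depleted line. Its difference was 6.89 ± 1.53 on the log2 scale (SE), from 5.13 to 8.48 with libraries left out in turn. GR24 replicate 11 lay below the highest of the 9 depleted libraries, recovery 2 replicate 8 at 2.53 CPM. Both genes were named for scores that rest on low depleted values, so these differences are a description with no test.

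**Figure D3:**
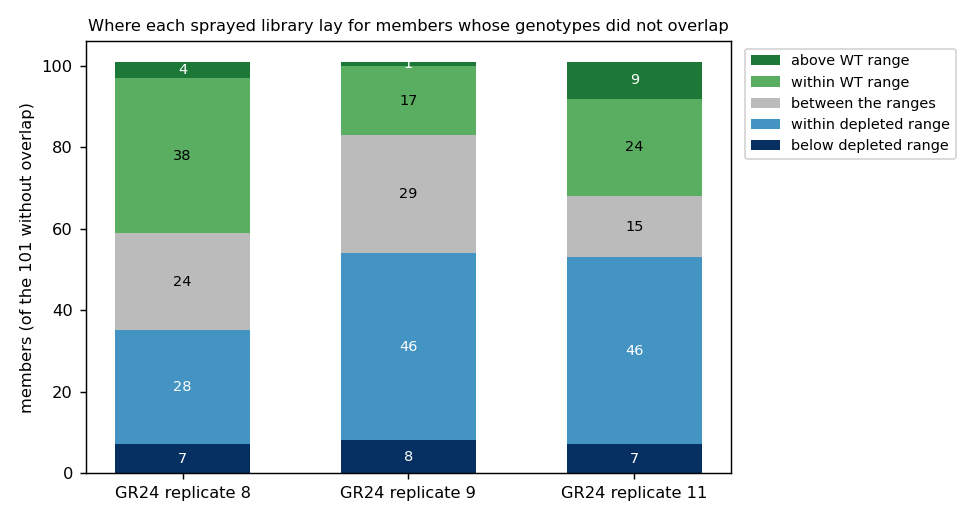
For the 101 genes whose 9 unsprayed wild-type libraries all lie above the 9 depleted libraries, the bars count the genes in each GR24 library by where that library falls relative to the 2 ranges. Replicate 8 holds 38 genes inside the wild-type range and 28 inside the depleted range, replicate 9 holds 17 and 46, and replicate 11 holds 24 and 46.

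The 3 sprayed libraries differed from each other in how many genes were near each genotype. Among the 101 genes without overlap, GR24 replicate 8 held 38 genes inside the wild-type range, 24 between the ranges and 28 inside the depleted range. Replicate 9 held 17, 29 and 46 genes in these places, and replicate 11 held 24, 15 and 46. The remaining genes were outside both ranges, with 4, 1 and 9 above the wild type and 7, 8 and 7 below the depleted line in replicates 8, 9 and 11. Replicate 9 was the lowest of the 3 for 71 of the 150 genes, beside 32.5% of the kept IDs. Without it the median difference from irrigated wild type was -0.51, and without replicate 11 it was -0.94. The count of called genes moved little, to 45 without replicate 9, from 53, beside 27.8% of all tested IDs, with all libraries.

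In the wild type in recovery 1, edgeR called 0 of the 150 genes, where 0.0% of all tested IDs were called, and 12 had an unadjusted p under 0.05, or 8.0% beside 6.77% of all tested IDs. DESeq2 also called 0. The genes with the smallest p in each direction did not pass the test. They were Solyc01g108790.2, with a log2 difference of 0.66 and an edgeR adjusted p of 0.628, and Solyc02g086850.2, whose difference of -4.67 from irrigated wild type, the group through which it reached the minimum, is a description. In recovery 2, 8 genes were called higher, or 5.33% beside 2.09% of all tested IDs, and 1 lower, or 0.667% beside 2.81%. The median difference over the list was 0.04 in recovery 1 and 0.11 in recovery 2. The rule used the means of all 3 unsprayed groups of each genotype and kept genes whose wild type stood above the depleted line in every condition, so genes that fell in the wild type in recovery were less likely to be chosen. The same holds for genes that rose in the depleted line, and the counts within a genotype are not independent of the choice.

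The 2 higher calls of largest fold in recovery 2 were Solyc02g093600.3 and Solyc01g008510.3, the genes that reached the minimum through that group. Their differences from irrigated wild type are a description with no test, and both rested on recovery 2 replicate 9, without which neither was called. The lower call was Solyc03g025670.3, at 66.6, 67.2 and 76.1 CPM in irrigated wild type and 15.1, 13.5 and 24.3 CPM in recovery 2, a difference of -1.99 ± 0.47 (SE, edgeR adjusted p = 0.0256). Its call was lost when any of 4 of the 6 libraries was left out. The number of calls itself rested on single libraries: it was 0 without recovery 2 replicate 9 or irrigated replicate 6 or 7, and 5 without irrigated replicate 14, where it was 9, beside 4.89% of all tested IDs, with all of them.

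Within the depleted line, 15 genes were called higher in recovery 1 than in irrigated plants, where 2.83% of all tested IDs were, and 5 were called lower, or 3.33% beside 5.58%. In recovery 2 the calls were 12 higher, or 8.0% beside 4.35%, and 4 lower, or 2.67% beside 6.04%. Among the called genes whose libraries did not overlap between the groups, Solyc02g083520.2 had the largest higher fold in both. It held 1.13, 1.34 and 0.467 CPM in irrigated depleted libraries, 4.83, 9.87 and 3.74 CPM in recovery 1 and 12.8, 4.85 and 9.54 CPM in recovery 2, without overlap with the irrigated plants. The differences were 2.66 ± 0.48 and 3.22 ± 0.48 on the log2 scale (SE), with edgeR adjusted p of 0.00284 and 0.000962, and both calls held with each library left out. In the wild type Solyc02g083520.2 was at 22.3, 52.1 and 30.3 CPM in irrigated plants and 49.1, 36.4 and 41.8 CPM in recovery 2, above every depleted library. After GR24 the values were 2.56, 1.93 and 3.12 CPM, inside the range of the 9 depleted libraries.

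The other higher calls named were Solyc04g005610.3 in recovery 1 and Solyc01g087180.3 in recovery 2. Solyc04g005610.3 held 10.1, 11.1 and 12.9 CPM in irrigated depleted libraries and 27.8, 155 and 24.4 CPM in recovery 1 replicates 12, 16 and 17, so that replicate 16 stood apart. Its difference was 2.60 ± 0.67 (SE, edgeR adjusted p = 0.0234), and 1.2 without replicate 16, with an adjusted p of 0.245. The call of Solyc04g005610.3 was also lost without irrigated replicate 3, 6 or 7. Solyc01g087180.3 held 0.236, 0.287 and 0.170 CPM in irrigated libraries, from 5, 6 and 4 counts, close to the floor of 3 counts. In recovery 2 it held 3.94, 0.724 and 1.76 CPM. The difference was 3.19 ± 0.97 (SE, edgeR adjusted p = 0.044), and its call was lost in 5 of the 6 left-out settings. Without wild-type recovery 1 or recovery 2 the gene would have missed the minimum of 5 CPM.

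Among the lower calls, Solyc02g086850.2 held 41.6, 2.25 and 4.50 CPM in irrigated depleted libraries, where replicate 3 was far above the others. In recovery 1 it gave 4 counts over the 3 libraries, against 1034 in irrigated plants, a ratio of irrigated to recovery 1 of 351 with an exact 95% interval of 137 to 1291 for counting error. Replicate 3 held 881 of the 1034 counts, and without it the log2 difference was -6.09 (adjusted p 0.0214), against -8.34 with all libraries. In recovery 2 its libraries held 0.703, 0.936 and 0.164 CPM. The edgeR adjusted p was 0.00749 in recovery 1 and 0.0296 in recovery 2. Without recovery 1 replicate 16 the first was 0.05002, just outside the threshold, and the second was lost in 4 of 6 settings, at -2.49 without irrigated replicate 3 against -4.75 with all libraries. Solyc03g116930.3 held 3.45, 3.88 and 3.78 CPM in irrigated plants and 1.06, 0.169 and 1.65 CPM in recovery 1, a difference of -2.0 ± 0.44 (SE, edgeR adjusted p = 0.0101), and kept its call with each library left out. Solyc11g017280.2 held 1.94, 2.25 and 4.84 CPM in irrigated plants and 0.0469, 0.553 and 0.573 CPM in recovery 2, a difference of -2.91 ± 0.90 (SE, edgeR adjusted p = 0.0484) that was lost in 5 of 6 settings.

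These counts of recovery calls in the depleted line also moved with single libraries. In recovery 1 the 20 calls, beside 8.41% of all tested IDs, became 5 without replicate 16, 6 without irrigated replicate 6 and 8 without irrigated replicate 7. In recovery 2 the 16 calls, beside 10.4%, became 4 without irrigated replicate 6, 9 without irrigated replicate 7, 9 without recovery 2 replicate 8 and 10 without recovery 2 replicate 13.

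Whether a gene's response to recovery differed between the genotypes is the interaction of genotype and recovery. It is the difference of 2 genotype ratios that the rule used, and is given here as a description. With edgeR's test 2 genes had a higher interaction in recovery 1, or 1.33% beside 0.255% of all tested IDs, and 1 a lower, or 0.667% beside 1.25%. In recovery 2 there were 4 higher, or 2.67% beside 3.12%, and 1 lower, or 0.667% beside 3.82%. In both directions together the counts were 3, beside 1.51%, and 5, beside 6.95%. Solyc04g080700.3 was called in both, and its call in recovery 1 was lost with each of the 12 libraries left out, that in recovery 2 only without irrigated wild-type replicate 7. It held 10.3, 8.77 and 10.7 CPM in irrigated depleted plants and 21.1, 23.6 and 24.1 CPM in recovery 1, while the wild type held 73.7, 111 and 66.9 CPM in irrigated plants and 75.4, 43.4 and 53.3 CPM in recovery 1. In recovery 2 the values were 15.1, 32.4 and 23.2 CPM in the depleted line and 52.8, 54.1 and 56.4 CPM in the wild type. The depleted libraries were thus higher in recovery than in irrigated plants without overlap, and remained below every unsprayed wild-type library. The GR24 libraries, at 22.4, 33.8 and 55.5 CPM, overlapped both.

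**Figure D4:**
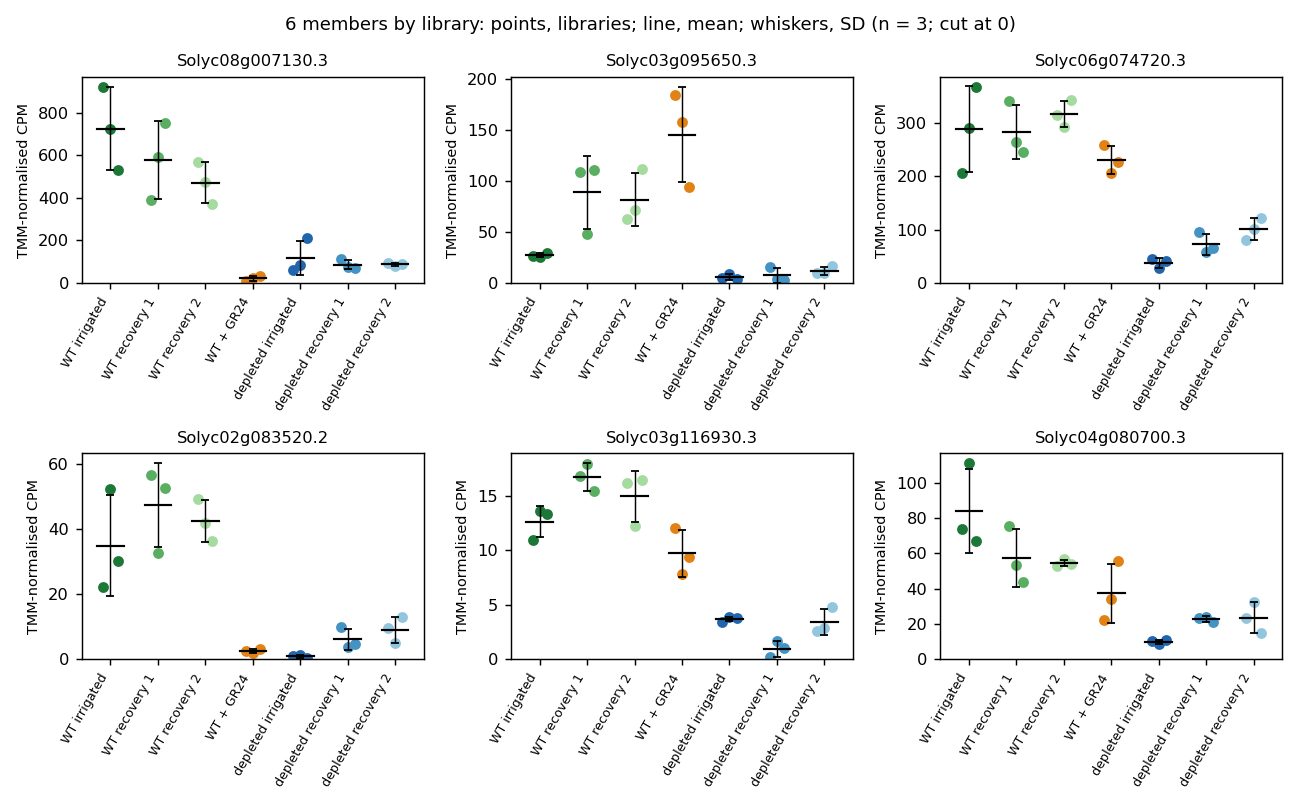
Each panel shows 1 gene, with TMM-normalised CPM for the 3 libraries of each of the 7 groups as points, the mean as a line and the SD (n = 3) as whiskers. In Solyc08g007130.3 the GR24 libraries lie below both genotypes, in Solyc03g095650.3 they lie above the irrigated wild type, and in Solyc02g083520.2 and Solyc04g080700.3 the recovery libraries of the depleted line lie above its irrigated libraries.

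The genes were spread over all 12 numbered chromosomes, as the number in the ID gives it. The list took 1.12% of all kept IDs, with the highest share on chromosome 4, where 18 genes were 1.58% of kept IDs, and the lowest on chromosome 10, where 4 genes were 0.455%. Chromosome 1 held the most genes, 24. No test was made of these shares. Few of the genes were neighbours by ID number. With at most 1 listed ID between them, there were 2 runs of 2 genes, Solyc01g108790.2 with Solyc01g108800.3 and Solyc08g006220.3 with Solyc08g006240.2. As means of the 9 libraries of each genotype, Solyc01g108790.2 held 15.9 ± 3.91 CPM in wild-type leaves and 4.84 ± 1.51 CPM in the depleted line and Solyc01g108800.3 58.8 ± 26.1 CPM in wild-type leaves and 7.93 ± 3.02 CPM in the depleted line (SD, n = 9 each). Solyc08g006220.3 held 12.4 ± 4.20 CPM in wild-type leaves and 4.06 ± 1.26 CPM in the depleted line, and Solyc08g006240.2 17.8 ± 4.42 CPM in wild-type leaves and 4.17 ± 1.63 CPM in the depleted line (SD, n = 9 each). The 9 libraries come from irrigated, recovery 1 and recovery 2 plants, so these SDs also hold differences between the conditions. After GR24 all 4 genes lay below their wild-type means of 9 libraries. The GR24 mean of Solyc01g108790.2, 3.45 CPM, was also below its depleted mean. Those of Solyc01g108800.3, Solyc08g006220.3 and Solyc08g006240.2, at 16.2, 6.22 and 5.57 CPM, were above their depleted means. The GR24 libraries held 3.28, 3.29 and 3.78 CPM for Solyc01g108790.2 and 24.3, 15.8 and 8.44 CPM for Solyc01g108800.3. The GR24 values were 7.64, 5.08 and 5.94 CPM for Solyc08g006220.3 and 6.51, 4.55 and 5.66 CPM for Solyc08g006240.2. Those of Solyc08g006220.3 overlapped irrigated wild type, the control for the spray, at 7.52, 7.54 and 9.34 CPM. For Solyc01g108790.2, Solyc01g108800.3 and Solyc08g006240.2 they lay below every irrigated wild-type library. The runs were also bounded by the minimum of 5 CPM. Beside them, Solyc01g108780.3 and Solyc08g006210.2, named after their values were seen, were at 1.35 and 1.22 CPM in the wild type. In the depleted line they were at 0.151 and 0.120 CPM, near the floor. On the other side of the second run, Solyc08g006250.1 was not lower, at 21.2 CPM in the wild type and 25.1 CPM in the depleted line. Reads that near-identical neighbours share could not be traced here.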

How the data were processed

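RNA from leaves was sequenced in 21 libraries of 7 groups, as paired ends, per the labels' protocols. The NEBNext Ultra kit they name does not mark strand. HISAT2 and HTSeq, an aligner and a counter, are named in the submitters' processing notes. Versions, settings and the genome build were not given in the sources used here. Values are the raw counts per ID as deposited by the authors. Without strand, reads of overlapping antisense genes cannot be told apart, and how multi-mapped reads were counted is not stated. Groups were taken from titles and treatments, and 6 columns of counts that match no sample were not used. Replicates of a group differed by more than sampling noise, with a chi-square per degree of freedom of 28.9 to 334 over 21 pairs (IDs with at least 20 counts in the pair). Each library was counted as 1 sample, though this spread does not show that the libraries are independent. Whether replicates were separate plants is not settled, and p-values measure the spread between these libraries.

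The test was edgeR 4.0.16 (R 4.3.3). Low IDs were removed by filterByExpr, which left 20373 IDs, all 150 genes among them. TMM factors scaled the libraries, and 1 robust quasi-likelihood fit held a mean for each of the 7 groups, with 14 residual degrees of freedom and Benjamini-Hochberg adjustment over all IDs. Standard errors derive from the fitted fold and its F value. The scripts were tested on simulated data. Intervals and floors (3 counts) cover counting error only. Alternatives were other pseudocounts, minimum levels and scalings in the rule, and, for the tests, DESeq2 1.42.0, other factors, no filter, a smaller fit, a fold minimum and each library left out.

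The genes, and the lists and tests made from them, were chosen with earlier results of these data known. IDs were named by a rule: the 2 lowest scores, the 2 of highest wild-type level, the 2 on each side of the limit, the 2 whose GR24 mean was nearest each genotype, and the longest runs of neighbours. In each comparison other than between genotypes, the rule took the 2 called genes per direction of largest fold without overlap of libraries, or the smallest p where none was called. Other IDs are said to be named after their values were seen.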

Additional observations from a re-analysis of the deposited data

Results flagged for a closer look

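Differences between the genotypes in the response to recovery met the test across all IDs for 8 pairs of gene and recovery. Each value is the log2 response of the depleted line minus that of the wild type (± SE, edgeR quasi-likelihood fit over 21 libraries). The rule used the ratios these are made of, so the values are a description. In recovery 1 the value was 1.76 ± 0.42 for Solyc04g080700.3, 1.35 ± 0.32 for Solyc09g059170.2 and -2.40 ± 0.59 for Solyc03g116930.3. In recovery 2 it was 2.93 ± 0.62 for Solyc02g083520.2, 2.92 ± 0.86 for Solyc05g015800.3, 1.87 ± 0.43 for Solyc04g080700.3, 1.28 ± 0.34 for Solyc06g074720.3 and -2.47 ± 0.62 for Solyc03g098640.3. Solyc02g083520.2 kept its call with each of the 12 libraries left out in turn. Solyc04g080700.3 in recovery 2 lost it once, without irrigated wild-type replicate 7, and in recovery 1 with each of the 12. The call was lost in 11 of 12 settings for Solyc09g059170.2, in 9 for Solyc03g116930.3, in 9 for Solyc06g074720.3, in 7 for Solyc05g015800.3 and in 7 for Solyc03g098640.3. Solyc05g015800.3 rested in part on depleted recovery 2 replicate 8, with a value of 1.71 without it. Its recovery 2 libraries in the depleted line held 352, 66.1 and 77.0 CPM in replicates 8, 11 and 13. The depleted libraries of Solyc06g074720.3 held 44.5, 27.3 and 41.8 CPM in irrigated plants and 122, 101 and 80.97 CPM in recovery 2. Those of Solyc09g059170.2 held 11.7, 7.81 and 8.19 CPM in irrigated plants and 18.8, 21.6 and 19.7 CPM in recovery 1. Solyc03g098640.3 moved apart in the other direction. In the depleted line it held 2.32, 2.11 and 5.18 CPM in irrigated plants and 1.41, 1.15 and 1.15 CPM in recovery 2, and in the wild type 8.12, 6.75 and 12.9 and 11.7, 22.3 and 25.05 CPM.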

How the results depend on the processing

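The list depended most on the minimum level, with 96 of the 150 genes chosen again at a minimum of 1 CPM. At 20 CPM 75 were chosen again, which is every gene of the list with a mean of at least 20 CPM. That count follows from the minimum alone. Other pseudocounts, scalings or the median of 3 libraries returned 120 to 141, and leaving out each library in turn 117 to 149. The calls between genotypes and of GR24 against wild type stayed within 1.5 times in every alternative. With libraries left out they were 119 to 124, 86 to 130 and 111 to 126 between genotypes (irrigated, recovery 1, recovery 2), and for GR24 43 to 54 against irrigated wild type, 51 to 67 against recovery 2 and 65 to 93 against the irrigated depleted line, where fitting only the compared groups gave 39. The median GR24 difference was -0.94 to -0.51 with libraries left out. Recovery calls were fewer and less stable, and the cause was not tested. In wild type they were 0 to 0 in recovery 1 and 0 to 8 in recovery 2, where fitting only the compared groups gave 23 and DESeq2 15. In the depleted line they were 5 to 24 in recovery 1, with 0 in the smaller fit, and 4 to 21 in recovery 2, with 31 by DESeq2. Interaction calls were 0 to 3 in recovery 1, with 0 in the smaller fit and 0 without the count filter, and 1 to 7 in recovery 2, with 8 by DESeq2. Without irrigated replicate 6 or 7 of either genotype, recovery 1 replicates 1, 4 or 13 of the wild type, replicate 12 of the depleted line or irrigated wild-type replicate 14, the recovery 1 interaction count was 0, and it was 1 without depleted replicate 16 or 17. The recovery 2 interaction count of 5 was 3 without depleted irrigated replicate 6 or 7, depleted recovery 2 replicate 11 or wild-type irrigated replicate 6, 2 without wild-type recovery 2 replicate 9 or 11, and 1 without wild-type irrigated replicate 7.

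The replicate numbers were not used as pairs in the main fit. Deviations of same-numbered libraries from their group means correlated between -0.358 and 0.169. Differently numbered libraries were not compared in this way, so the check cannot exclude pairing by number. A fit with the number as a replicate block, with 4 residual degrees of freedom, called 106 genes between genotypes in irrigated plants, 100 in recovery 2, and 58 for GR24 against wild-type recovery 2. The other comparisons could not be estimated with the block. For single named genes, 376 settings kept the side of the threshold, 150 fell outside it and none reversed direction.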
